A study of Mus musculus with 12 samples.

Results

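The genes described here encode the folding, quality control and transport machinery of the endoplasmic reticulum (ER), the compartment in which T cells fold the receptors and cytokines that they display or secrete. They were taken as a list of 38 symbols, and a gene counted as measured where the platform annotation gave a transcript cluster exactly 1 symbol, equal to the listed one; where several clusters met this, the brightest over the 12 arrays was used. By this rule 36 of the 38 genes were measured, of 22180 genes in the whole table. Pdia4, a disulfide isomerase, and Srp54a, a subunit of the signal recognition particle, were not measured because their clusters carry several symbols.

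New secretory and membrane proteins enter the ER through the Sec61 channel, lose their signal peptide, and are folded by chaperones such as BiP, the product of Hspa5, and by lectin chaperones and disulfide isomerases. Proteins that fail are drawn back to the cytosol and degraded, and folded ones leave in COPII-coated vesicles, while escaped chaperones are returned by KDEL receptors. An overload of unfolded protein is sensed by IRE1α (encoded by Ern1), ATF6 and PERK. IRE1α splices the mRNA of Xbp1 into a transcription factor that raises many of these genes, and XBP1 is known for building the secretory apparatus of plasma cells and for its activity in effector T cells.

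RNA of sorted T cells from C57BL6 Foxp3-GFP mice, in which green fluorescent protein reports the regulatory T cell factor Foxp3, was measured on 12 one-colour Affymetrix arrays. All T cells (200000 per well) had been stimulated by CD11c dendritic cells of the BALB/c strain (20000 per well), so every group was alloreactive, and every well held IL-2 at 5 ng/mL. The groups, each of 3 arrays called A, B and C, were as follows. CD8 Foxp3-positive cells were GFP-positive CD8 cells from wells that also held TGF-β (5 ng/mL) and retinoic acid (40 nM). CD8 controls were GFP-negative CD8 cells from wells with IL-2 alone. Both were taken after 4 days. CD4 Foxp3-positive cells and CD4 controls were made in the same ways and sorted after 5 days. Treatment and Foxp3 sort changed together within each lineage, and lineage and days of culture changed together between lineages, so neither pair can be told apart. The labels give no ages for the mice. Cells were pooled before staining. Nothing in the labels ties replicates to different cultures or mice, so p-values rest on spread among samples that may be no more than technical.

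Levels are deposited log2 values, and changes are differences on the log2 scale. A change is called where limma's two-sided test gave an adjusted p under 0.05 (Benjamini-Hochberg over all 22180 genes), and ± after a change is the standard error of the model. The arrays were normalized to each other, and their medians over all genes ran from 5.56 to 5.66, with the 3 CD4 controls highest. The values do not show whether there were fewer cells of a type or less RNA per cell, and levels of different genes are not compared. Foxp3 averaged 12.48 ± 0.05 in CD8 Foxp3-positive cells and 5.66 ± 0.59 in CD8 controls (mean ± SD, n = 3 each), and 12.44 ± 0.05 in CD4 Foxp3-positive cells and 5.76 ± 0.29 in CD4 controls, which follows from the sort. Of all 5 regulatory T cell markers, 3 rose in CD8 cells (4 without CD8 control C), and 2 rose and 1, Tnfrsf18, fell in CD4 cells. In CD4 Foxp3-positive cells and controls, Tnfrsf18 averaged 11.03 and 11.64, Il2ra 12.82 and 12.90, Ctla4 11.20 and 10.95, and Ikzf2 9.23 and 6.52. In CD8 cells these were 10.78 and 10.43, 12.84 and 12.28, 11.48 and 10.75, and 9.56 and 8.84. All 8 measured markers of T cells lay above 5.60, the median of all genes' means, in every group; Cd3e rose and Cd28 fell in both lineages, and Cd3d, Cd3g, Thy1 and Zap70 fell in CD4 cells, with changes of -0.23 (Thy1) to -0.59 (Zap70). Their summed log2 level was 85.7 to 86.3 in CD8 Foxp3-positive cells and 85.8 to 86.9 in CD8 controls, and 87.1 to 88.6 in CD4 Foxp3-positive cells and 89.2 to 90.0 in CD4 controls. Of the lineage markers, Cd8a averaged 12.54 and 11.79 in CD8 Foxp3-positive cells and controls, and 7.54 and 6.51 in the CD4 groups. In the same order Cd8b1 averaged 11.97, 11.86, 6.17 and 7.72, Cd4 5.17, 5.36, 11.92 and 12.31, and Zbtb7b 6.40, 6.96, 7.03 and 7.47. Within CD4 cells Cd8a rose (1.03) and Cd8b1 fell (-1.55), both called, and Zbtb7b fell in both lineages. Of 10 markers of plasma cells, the secretory cells in which this machinery is largest, Jchain, Sdc1, Tnfrsf17, Eaf2 and Derl3 (5 of 10) had means under 5.60 in all groups. The summed log2 level of the list was 59.0 to 59.7 in CD8 Foxp3-positive cells, 59.5 to 61.7 in CD8 controls, 56.2 to 56.9 in CD4 Foxp3-positive cells and 58.7 to 60.5 in CD4 controls. Within that list Slamf7 (-2.11 ± 0.20 in CD8 and -3.67 ± 0.20 in CD4 cells) and the ER prolyl isomerase gene Fkbp11 (-1.33 ± 0.17 and -1.40 ± 0.17) fell in both lineages, Txndc5 fell in CD4 cells (-0.43 ± 0.10), Tnfrsf13b rose in both (2.10 ± 0.17 and 2.16 ± 0.17) and Eaf2, under 5.60 in both groups, rose in CD4 cells (0.57 ± 0.15). The Foxp3-positive means of Fkbp11, 5.05 in CD8 and 4.90 in CD4 cells, also lay under 5.60. The summed levels of B cell (9 genes), dendritic cell (11 genes) and macrophage and monocyte markers (9 genes) were 47.2 to 47.8, 65.6 to 67.5 and 47.3 to 51.1 in CD8 Foxp3-positive cells, and 43.2 to 44.8, 66.6 to 68.0 and 46.1 to 48.0 in CD8 controls. In CD4 Foxp3-positive cells they were 46.5 to 47.2, 64.4 to 68.7 and 46.1 to 48.4, and in CD4 controls 43.3 to 44.3, 68.8 to 69.7 and 46.7 to 48.7. Bank1 and Cd79b, B cell genes, and Lyz2, a macrophage gene, rose in both lineages, and Cd68 and Batf3 fell in both. In CD8 cells Itgax, which encodes CD11c, fell (-1.76 ± 0.13), and Cst3 (0.38 ± 0.10), C1qb (0.72 ± 0.19) and Cd79a (0.36 ± 0.12) rose, Cd79a not without CD8 control C. In CD4 cells H2-Ab1 (-1.05 ± 0.33) and Ebf1 (-0.64 ± 0.17) fell and Ccl17 (0.78 ± 0.24) rose. No marker has a measured background, so none can be called absent, and the part of these cells in the results below was not tested.

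ER genes were lower in Foxp3-positive than in control CD4 cells across every role. In CD8 cells fewer were called, 9 lower and 5 higher, with a smaller median change. In CD4 cells 26 of the 36 genes fell and 1, Edem2, rose, where 10.4% of all genes fell and 12.1% rose. Their median change was -0.51, against 0.00 for all genes. All Foxp3-positive arrays lay below all CD4 control arrays for 31 genes (17.6% of all genes) and above them for 1 (20.2% of all genes). Most of the ER genes were bright, and of the 11090 genes at or above the median level 15.9% fell and 20.6% rose in CD4 cells and 18.8% fell and 16.4% rose in CD8 cells. In CD8 cells 9 of the 36 fell (25%) and 5 rose (13.9%), where 10.6% of all genes fell and 9.39% rose, and the median change was -0.13, against -0.02 for all genes. The share that rose was under the 16.4% of genes at or above the median level, and the share that fell was above their 18.8%. The CD8 groups stood apart for 12 genes that were lower (18% of all genes) and 6 that were higher (15.5% of all genes). All 9 genes that fell in CD8 cells also fell in CD4 cells, where they were 34.6% of those that fell. The plot of changes by role shows the CD4 estimates to the left of the CD8 estimates for 34 of the 36 genes.

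**Figure D1:**
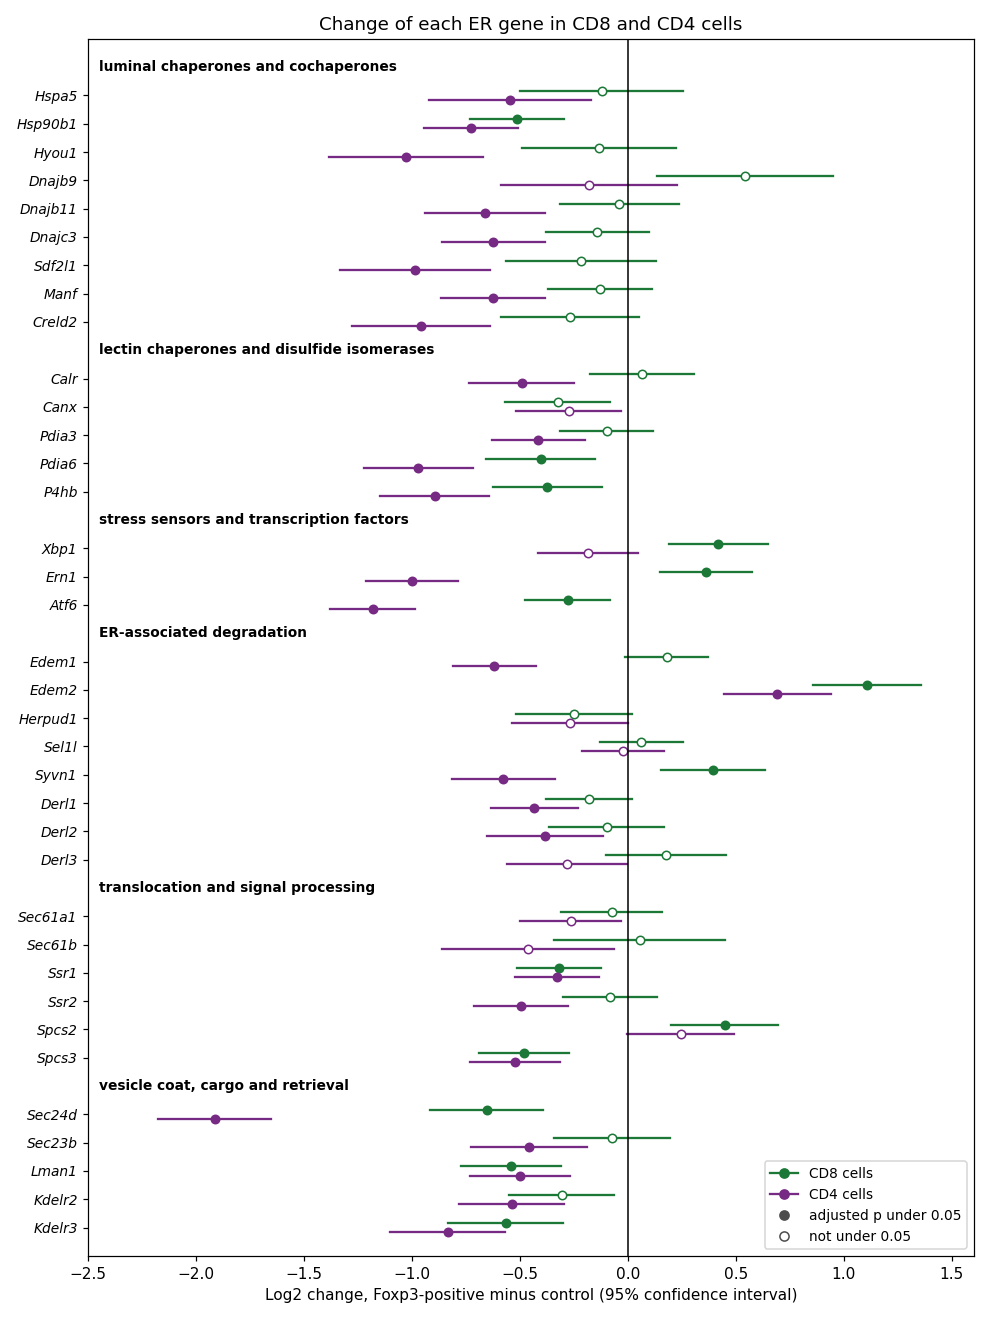
Log2 change of each of the 36 ER genes, Foxp3-positive minus control, in CD8 cells (green) and CD4 cells (purple), with 95% confidence intervals from limma; filled points have an adjusted p under 0.05. The CD4 changes of 26 genes are called lower, down to -1.91 for Sec24d, while the CD8 changes run from -0.66 for Sec24d to 1.11 for Edem2.

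1 array stands apart for these genes. CD8 control C was the lowest of the 3 CD8 control arrays for 33 of the 36 genes (91.7%), where it was the lowest for 37.7% of all genes. Its median over the 36 genes was 9.33, against 9.92 and 9.97 on CD8 control arrays A and B, while its median over all genes was 5.59, against 5.57 and 5.58. Without it 14 ER genes fell and 3 rose in CD8 cells (11.3% and 9.24% of all genes), with a median change of -0.24. Counts of calls for CD8 cells by role, motif and list are therefore followed by the count without this array. With only the CD8 arrays in the fit, the CD8 calls of Ern1, Syvn1, Atf6, P4hb, Pdia6 and Ssr1 were lost. In the other groups the array that was lowest most often was CD8 Foxp3-positive C (26 genes), CD4 Foxp3-positive B (20 genes) and CD4 control B (24 genes). These were 72.2%, 55.6% and 66.7% of the 36 genes, where the same arrays were lowest for 36.8%, 37.3% and 35.6% of all genes.

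**Figure D2:**
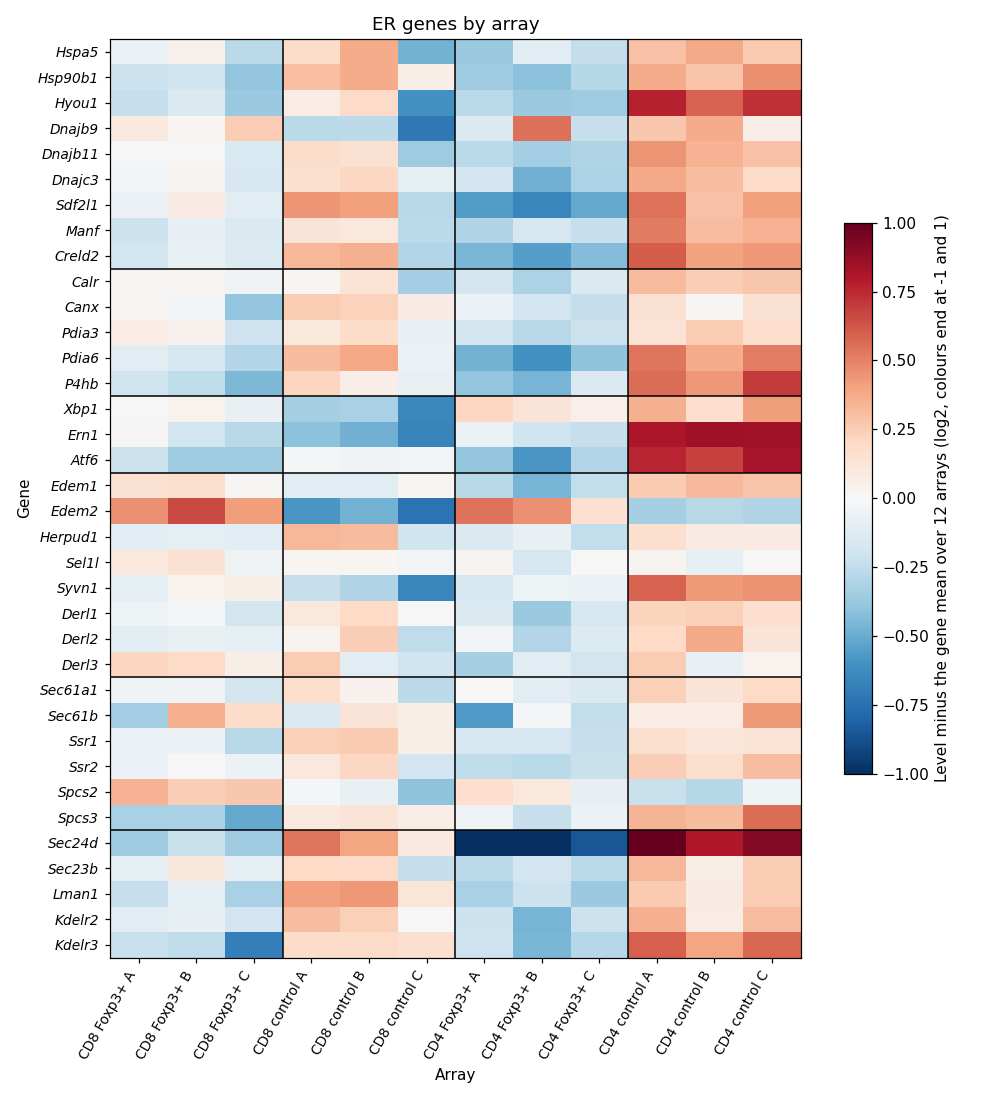
Level of each ER gene (rows, grouped by role) on each array (columns), as the difference from that gene's mean over the 12 arrays, on a log2 colour scale that ends at -1 and 1. The CD4 controls on the right are the reddest block, and CD8 control C is bluer than CD8 control A and B for 33 of 36 genes.

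Promoters of 9 of these genes hold a known stress element, shown here because it is the sequence through which ATF6, together with the CCAAT-binding factor NF-Y, is known to act. The ER stress element (ERSE), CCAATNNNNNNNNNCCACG, was searched on both strands in RefSeq promoters of build GRCm38.p6, from 250 bases before to 50 bases after each start. It lay in the promoters of 9 of the 27 measured genes with a promoter in the table (33.3%), and in those of 37 of 27025 genes in all (0.137%). The 10 sites, read in the direction of the motif with its fixed bases in capitals, were as follows, on the strand of the gene except for Calr, Creld2, Derl3 and the second Hsp90b1 site.
Hspa5: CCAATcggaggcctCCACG
Hsp90b1, first site: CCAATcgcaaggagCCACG
Hsp90b1, second site: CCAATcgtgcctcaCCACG
Dnajc3: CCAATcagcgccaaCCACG
Creld2: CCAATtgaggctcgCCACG
Calr: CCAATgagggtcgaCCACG
Canx: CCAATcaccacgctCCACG
Pdia6: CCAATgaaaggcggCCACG
Syvn1: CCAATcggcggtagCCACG
Derl3: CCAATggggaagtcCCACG
The Hspa5 site is at chr2:34772025-34772043, 65 to 47 bases before the start, and the Syvn1 site at chr19:6046532-6046550, 44 to 26 bases before it. A shorter form, ERSE-II, in which 1 free base parts ATTGG and CCACG, lay in the promoters of Herpud1 (ATTGGgCCACG) and Dnajb11 (ATTGGcCCACG) and of 0.0444% of all genes. The XBP1 element TGACGTGG lay in those of Sec24d and Kdelr3 and of 0.714% of all genes, and overlapped no ERSE among the ER genes. The list was drawn up as genes of this pathway, so these shares describe it, and a match is not a site of binding.

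Among the 11 genes with an ERSE or ERSE-II, 8 fell in CD4 cells, with a median change of -0.58, and 2 fell and 1 rose in CD8 cells. With CD8 control C left out, 5 of these 11 fell in CD8 cells (Hspa5, Hsp90b1, Creld2, Pdia6 and Herpud1) and none rose. Among the 16 with a promoter in the table and neither element, 10 fell and 1 rose in CD4 cells, with a median of -0.44, and 4 fell and 4 rose in CD8 cells (5 and 3 without CD8 control C). No test was made between them. The promoter of Edem2, which rose most in both lineages, holds none of the elements searched and is not printed. Whole promoters are printed for 3 genes that hold such an element. These are Hsp90b1, which fell in both lineages, Syvn1, which moved in opposite directions with all arrays, and Sec24d, which fell most. Capitals mark the elements named above, and each runs 5′ to 3′ on the gene's strand, at chr10:86705395-86705694 (minus strand), chr19:6046326-6046625 (plus) and chr3:123267246-123267545 (plus).
Hsp90b1: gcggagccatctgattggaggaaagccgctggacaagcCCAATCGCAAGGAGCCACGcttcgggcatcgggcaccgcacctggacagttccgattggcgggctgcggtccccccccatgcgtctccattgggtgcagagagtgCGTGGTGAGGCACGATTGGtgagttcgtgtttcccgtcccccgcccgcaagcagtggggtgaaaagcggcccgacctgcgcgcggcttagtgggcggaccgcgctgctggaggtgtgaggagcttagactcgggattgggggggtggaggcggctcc
Syvn1: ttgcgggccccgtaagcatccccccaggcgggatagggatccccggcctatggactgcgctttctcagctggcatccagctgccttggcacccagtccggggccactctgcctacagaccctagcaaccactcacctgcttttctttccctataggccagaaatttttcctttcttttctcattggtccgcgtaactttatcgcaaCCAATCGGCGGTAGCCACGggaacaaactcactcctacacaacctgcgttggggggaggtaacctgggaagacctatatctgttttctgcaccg
Sec24d: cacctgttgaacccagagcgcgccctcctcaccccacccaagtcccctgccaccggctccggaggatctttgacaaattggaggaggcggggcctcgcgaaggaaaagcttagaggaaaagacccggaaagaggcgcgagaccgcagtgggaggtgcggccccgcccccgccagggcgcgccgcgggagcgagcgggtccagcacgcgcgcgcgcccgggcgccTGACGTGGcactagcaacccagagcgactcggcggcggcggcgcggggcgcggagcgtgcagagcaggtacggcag

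Chaperones of the ER lumen fell in CD4 cells in 8 of 9 cases, and in CD8 cells only Hsp90b1 did. When CD8 control C was left out, 5 of the 9 fell in CD8 cells, with Hspa5, Hyou1, Sdf2l1 and Creld2 added. Hspa5 encodes BiP, the Hsp70 chaperone of the lumen. It was at 9.39, 9.50 and 9.19 in Foxp3-positive CD8 cells, against 9.64, 9.83 and 8.99 in control CD8 cells, where the groups overlapped and CD8 control C was the lowest of the 6 arrays (-0.12 ± 0.17, adjusted p = 0.725). In CD4 cells it was at 9.09, 9.35 and 9.22 in Foxp3-positive cells, against 9.75, 9.84 and 9.72 in controls, with every Foxp3-positive array below every control (-0.55 ± 0.17, adjusted p = 0.0383). Leaving out any 1 of the 6 CD4 arrays ended that call (adjusted p from 0.0524 to 0.118). Without CD8 control C the CD8 change of Hspa5 was -0.37 ± 0.12 and passed (adjusted p = 0.0441).

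Hsp90b1 encodes GRP94, the Hsp90 chaperone that folds integrins and Toll-like receptors. It was at 11.64, 11.65 and 11.46 in Foxp3-positive CD8 cells, against 12.15, 12.22 and 11.92 in control CD8 cells. CD4 levels were 11.50, 11.44 and 11.57 in Foxp3-positive cells, against 12.22, 12.14 and 12.32 in controls. Both lineages were lower without overlap (CD8 change -0.52 ± 0.10, adjusted p = 0.00235; CD4 change -0.73 ± 0.10, adjusted p = 0.000143), and no single array or other setting ended either call. Hyou1, a large chaperone that exchanges the nucleotide of BiP, stood at 9.44, 9.34 and 9.36 in Foxp3-positive CD4 cells, against 10.48, 10.30 and 10.44 in control CD4 cells. This was the largest fall among luminal chaperones, 2.04-fold (-1.03 ± 0.16, adjusted p = 0.000479). In CD8 cells its level was 9.48, 9.57 and 9.34 in Foxp3-positive cells, against 9.79, 9.90 and 9.11 in controls, the groups overlapping through control array C (-0.14 ± 0.16, adjusted p = 0.669); without that array the change was -0.38 ± 0.10 (adjusted p = 0.017).

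Cochaperones of BiP with a J domain also fell in CD4 cells. Dnajb11 (ERdj3), which hands clients to BiP, was at 9.33, 9.26 and 9.30 in Foxp3-positive CD4 cells, against 10.04, 9.95 and 9.89 in control CD4 cells (-0.66 ± 0.13, adjusted p = 0.002). Dnajc3 (p58IPK), a luminal cochaperone once known as an inhibitor of kinases, was at 9.73, 9.44 and 9.60 in Foxp3-positive CD4 cells, against 10.30, 10.23 and 10.11 in control CD4 cells (-0.62 ± 0.11, adjusted p = 0.00104). Each had its CD4 groups apart. Their CD8 levels were 9.60, 9.60 and 9.45 in Foxp3-positive cells, against 9.78, 9.75 and 9.24 in controls for Dnajb11 (-0.04 ± 0.13, adjusted p = 0.89), and 9.89, 9.95 and 9.75 in Foxp3-positive cells, against 10.08, 10.13 and 9.82 in controls for Dnajc3 (-0.14 ± 0.11, adjusted p = 0.456), so the groups overlapped for both.

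Dnajb9 (ERdj4), a J protein that is a known XBP1 target and represses IRE1α, was the 1 luminal gene that did not fall in CD4 cells, and passed in neither lineage. It averaged 8.24 ± 0.13 in CD8 Foxp3-positive cells and 7.70 ± 0.26 in CD8 controls, with no overlap (0.54 ± 0.19, adjusted p = 0.0631). In CD4 cells it averaged 8.18 ± 0.43 in Foxp3-positive cells and 8.36 ± 0.15 in controls (-0.18 ± 0.19, adjusted p = 0.561), and CD4 Foxp3-positive B was above all controls.

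3 small luminal proteins that ER stress induces fell in CD4 cells. Sdf2l1, a partner of ERdj3, stood at 8.39, 8.30 and 8.44 in Foxp3-positive CD4 cells, against 9.49, 9.24 and 9.36 in control CD4 cells (-0.99 ± 0.16, adjusted p = 0.000547). Creld2, which has disulfide isomerase motifs, was at 9.26, 9.16 and 9.28 in Foxp3-positive CD4 cells, against 10.32, 10.12 and 10.15 in control CD4 cells (-0.96 ± 0.15, adjusted p = 0.000352). For Manf, a secreted ER protein that binds BiP, the levels were 6.59, 6.72 and 6.66 in Foxp3-positive CD4 cells, against 7.41, 7.20 and 7.24 in control CD4 cells (-0.63 ± 0.11, adjusted p = 0.00108). None of their CD4 groups overlapped.

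The CD8 groups of the same genes all overlapped through control array C. Sdf2l1 was at 8.89, 9.03 and 8.84 in Foxp3-positive CD8 cells, against 9.39, 9.36 and 8.67 in control CD8 cells (-0.22 ± 0.16, adjusted p = 0.432), Creld2 at 9.52, 9.64 and 9.58 in Foxp3-positive CD8 cells, against 10.05, 10.07 and 9.42 in control CD8 cells (-0.27 ± 0.15, adjusted p = 0.26). Manf was at 6.68, 6.81 and 6.75 in Foxp3-positive CD8 cells, against 7.02, 7.00 and 6.62 in control CD8 cells (-0.13 ± 0.11, adjusted p = 0.502). Without CD8 control C the changes of Sdf2l1 (-0.45 ± 0.10, adjusted p = 0.0076) and Creld2 (-0.48 ± 0.09, adjusted p = 0.0031) passed.

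Lectin chaperones and disulfide isomerases fell in 4 of 5 cases in CD4 cells and in 2 of 5 in CD8 cells, with or without CD8 control C. The isomerases P4hb and Pdia6, which form and rearrange disulfide bonds, fell in both. P4hb was at 10.45, 10.40 and 10.20 in Foxp3-positive CD8 cells, against 10.87, 10.72 and 10.58 in control CD8 cells (-0.37 ± 0.12, adjusted p = 0.0383). Its CD4 levels were 10.26, 10.19 and 10.51 in Foxp3-positive cells, against 11.21, 11.09 and 11.35 in controls (-0.90 ± 0.12, adjusted p = 8.54e-05). Pdia6, which also attenuates IRE1α, was at 10.56, 10.51 and 10.38 in Foxp3-positive CD8 cells, against 10.99, 11.06 and 10.62 in control CD8 cells (-0.40 ± 0.12, adjusted p = 0.0261). On the CD4 arrays it read 10.20, 10.07 and 10.27 in Foxp3-positive cells, against 11.21, 11.05 and 11.19 in controls (-0.97 ± 0.12, adjusted p = 4.27e-05). All 4 of these pairs of groups stood apart. The CD8 calls were fragile: that of P4hb ended without any 1 CD8 array other than control C (adjusted p from 0.05003 to 0.154), and that of Pdia6 without CD8 control A or B or Foxp3-positive B or C (adjusted p from 0.0573 to 0.113).

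Calr (calreticulin) and Canx (calnexin) hold glycoproteins in the folding cycle, and Pdia3 (ERp57) works with them and in loading MHC class I molecules. Calr was at 11.88, 11.75 and 11.92 in Foxp3-positive CD4 cells, against 12.38, 12.31 and 12.34 in control CD4 cells (-0.49 ± 0.11, adjusted p = 0.006), with no overlap. For Pdia3 the CD4 levels were 11.39, 11.30 and 11.36 in Foxp3-positive cells, against 11.72, 11.83 and 11.75 in controls (-0.42 ± 0.10, adjusted p = 0.00842), again apart. In CD8 cells Calr was at 12.08, 12.09 and 12.03 in Foxp3-positive cells, against 12.09, 12.20 and 11.73 in controls (0.06 ± 0.11, adjusted p = 0.782), and Pdia3 at 11.65, 11.62 and 11.37 in Foxp3-positive cells, against 11.68, 11.76 and 11.50 in controls (-0.10 ± 0.10, adjusted p = 0.59), and the groups of both overlapped. Canx passed in neither lineage (-0.33 ± 0.11, adjusted p = 0.0598 in CD8 cells and -0.27 ± 0.11, adjusted p = 0.105 in CD4 cells), although Foxp3-positive arrays lay below control arrays in both. It averaged 11.65 ± 0.22 in CD8 Foxp3-positive cells and 11.98 ± 0.09 in CD8 controls, and 11.62 ± 0.09 in CD4 Foxp3-positive cells and 11.90 ± 0.08 in CD4 controls.

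All 3 genes of the stress-sensing arms changed in CD8 cells, Ern1 and Xbp1 upwards and Atf6 downwards, and Ern1 and Atf6 fell in CD4 cells. Xbp1 alone of the 3 passed in CD8 cells without CD8 control C. Ern1, the sensor IRE1α, was at 7.58, 7.38 and 7.29 in Foxp3-positive CD8 cells, against 7.16, 7.09 and 6.91 in control CD8 cells, so that every Foxp3-positive array was higher (0.36 ± 0.10, adjusted p = 0.0191). In CD4 cells it was at 7.50, 7.37 and 7.34 in Foxp3-positive cells, against 8.38, 8.42 and 8.41 in controls, a 2-fold fall with no overlap (-1.0 ± 0.10, adjusted p = 7.47e-06). The CD4 controls were the highest group, and the Foxp3-positive cells of both lineages had means of 7.42 (CD8) and 7.40 (CD4). The rise in CD8 cells was lost without CD8 control C (adjusted p = 0.0659) or CD8 Foxp3-positive A (adjusted p = 0.0892), and the fall in CD4 cells under none of the settings tried.

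Xbp1, the transcription factor made active by IRE1α, had 10.68, 10.72 and 10.61 in Foxp3-positive cells, against 10.35, 10.36 and 10.04 in controls, a rise without overlap (0.42 ± 0.11, adjusted p = 0.013). CD4 levels of Xbp1 were 10.89, 10.81 and 10.73 in Foxp3-positive cells, against 11.04, 10.85 and 11.10 in controls, where the groups overlapped (-0.18 ± 0.11, adjusted p = 0.258). These arrays measure the whole transcript and not its splicing. Atf6, whose product is cut in the Golgi into a transcription factor, was at 8.66, 8.52 and 8.52 in Foxp3-positive CD8 cells, against 8.86, 8.84 and 8.85 in control CD8 cells (-0.28 ± 0.09, adjusted p = 0.047). In CD4 cells Atf6 was at 8.48, 8.29 and 8.58 in Foxp3-positive cells, against 9.64, 9.56 and 9.70 in controls, a 2.27-fold fall (-1.18 ± 0.09, adjusted p = 8.14e-07). Both pairs of groups stood apart, but the CD8 call of Atf6 ended without any 1 CD8 array other than Foxp3-positive A (adjusted p from 0.0803 to 0.136).

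Genes of ER-associated degradation moved both ways: 4 of 8 fell and 1 rose in CD4 cells, and 2 rose and none fell in CD8 cells (1 rose, Edem2, and 1 fell, Herpud1, without CD8 control C). Edem2, which trims mannose and so commits glycoproteins to degradation, rose in both lineages. It was at 10.32, 10.52 and 10.28 in Foxp3-positive CD8 cells, against 9.28, 9.39 and 9.12 in control CD8 cells, a 2.15-fold rise (1.11 ± 0.12, adjusted p = 1.7e-05). CD4 cells had 10.40, 10.32 and 10.01 in Foxp3-positive cells, against 9.53, 9.58 and 9.56 in controls (0.69 ± 0.12, adjusted p = 0.000668), also without overlap, and no setting ended either call. Its relative Edem1 fell in CD4 cells. Edem1 was at 10.94, 10.95 and 10.80 in Foxp3-positive CD8 cells, against 10.67, 10.67 and 10.81 in control CD8 cells (0.18 ± 0.09, adjusted p = 0.206), with overlap through control C. CD4 arrays gave 10.51, 10.32 and 10.54 in Foxp3-positive cells, against 11.05, 11.11 and 11.07 in controls (-0.62 ± 0.09, adjusted p = 0.000199), without overlap. The other cluster of Edem1 passed in neither lineage (0.28, adjusted p = 0.134 in CD8 and -0.18, adjusted p = 0.332 in CD4 cells).

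Syvn1 encodes HRD1, the ubiquitin ligase at the core of the degradation channel, and moved in opposite directions. Its levels were 8.07, 8.20 and 8.22 in Foxp3-positive CD8 cells, against 7.93, 7.86 and 7.51 in control CD8 cells, all Foxp3-positive arrays being higher (0.39 ± 0.11, adjusted p = 0.0233). In CD4 cells they were 8.0, 8.11 and 8.10 in Foxp3-positive cells, against 8.75, 8.59 and 8.61 in controls, all Foxp3-positive arrays being lower (-0.58 ± 0.11, adjusted p = 0.0019). The CD8 rise was lost without CD8 control C or Foxp3-positive B or C (adjusted p from 0.0704 to 0.0814; 0.26 ± 0.09 without control C).

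Derlins are membrane proteins of the same channel. Derl1 was at 9.98, 10.01 and 9.85 in Foxp3-positive CD8 cells, against 10.14, 10.23 and 10.03 in control CD8 cells (-0.18 ± 0.09, adjusted p = 0.221). In CD4 cells it was at 9.89, 9.66 and 9.86 in Foxp3-positive cells, against 10.25, 10.27 and 10.20 in controls (-0.43 ± 0.09, adjusted p = 0.00386); the groups stood apart in both lineages. Derl2 was at 7.03, 7.06 and 7.04 in Foxp3-positive CD8 cells, against 7.17, 7.38 and 6.88 in control CD8 cells (-0.10 ± 0.12, adjusted p = 0.681), which overlapped. Its CD4 levels were 7.11, 6.84 and 7.00 in Foxp3-positive cells, against 7.33, 7.51 and 7.26 in controls (-0.39 ± 0.12, adjusted p = 0.0394), which did not. The CD4 call of Derl2 ended without CD4 control A or B or Foxp3-positive B or C (adjusted p from 0.0721 to 0.149), and its other cluster did not pass (-0.10, adjusted p = 0.636). Derl3 (0.18 ± 0.13, adjusted p = 0.419 in CD8 and -0.28 ± 0.13, adjusted p = 0.143 in CD4 cells), Sel1l, the partner of HRD1 (0.06 ± 0.09, adjusted p = 0.725 and -0.02 ± 0.09, adjusted p = 0.89), and Herpud1, a stress-induced adaptor of the channel (-0.25 ± 0.12, adjusted p = 0.199 and -0.27 ± 0.12, adjusted p = 0.15), passed in neither. Derl3 averaged 5.59 ± 0.08 in CD8 Foxp3-positive cells and 5.41 ± 0.24 in CD8 controls, and 5.22 ± 0.11 in CD4 Foxp3-positive cells and 5.51 ± 0.17 in CD4 controls. For Sel1l the means were 9.09 ± 0.10 in CD8 Foxp3-positive cells and 9.03 ± 0.03 in CD8 controls, and 8.97 ± 0.11 in CD4 Foxp3-positive cells and 9.0 ± 0.07 in CD4 controls. Those of Herpud1 were 9.62 ± 0.02 in CD8 Foxp3-positive cells and 9.87 ± 0.30 in CD8 controls, and 9.57 ± 0.09 in CD4 Foxp3-positive cells and 9.84 ± 0.05 in CD4 controls, and its CD4 groups did not overlap. Without CD8 control C the CD8 change of Herpud1 was -0.42 ± 0.08 (adjusted p = 0.0039).

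Genes of entry into the ER fell in 3 of 6 cases in CD4 cells, while 2 fell and 1 rose in CD8 cells, with or without CD8 control C. Spcs3 and Spcs2 encode subunits of the signal peptidase, which removes signal peptides. Spcs3 was at 10.11, 10.11 and 9.92 in Foxp3-positive CD8 cells, against 10.53, 10.56 and 10.50 in control CD8 cells (-0.48 ± 0.10, adjusted p = 0.00278). On the CD4 arrays it read 10.38, 10.20 and 10.37 in Foxp3-positive cells, against 10.77, 10.75 and 10.99 in controls (-0.52 ± 0.10, adjusted p = 0.00137), lower without overlap in both. Spcs2 was at 10.77, 10.67 and 10.69 in Foxp3-positive CD8 cells, against 10.40, 10.35 and 10.02 in control CD8 cells (0.45 ± 0.11, adjusted p = 0.0131), higher without overlap. CD4 arrays gave 10.59, 10.53 and 10.34 in Foxp3-positive cells, against 10.20, 10.14 and 10.38 in controls (0.24 ± 0.11, adjusted p = 0.159), with overlap. The CD8 rise of Spcs2 reached an adjusted p of 0.0507 without CD8 Foxp3-positive A, and its other cluster rose by 0.87 (adjusted p = 0.00051).

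Ssr1 and Ssr2 encode subunits of the translocon-associated TRAP complex, which helps some signal sequences enter. Ssr1 was at 10.32, 10.33 and 10.11 in Foxp3-positive CD8 cells, against 10.63, 10.65 and 10.45 in control CD8 cells (-0.32 ± 0.09, adjusted p = 0.0217). In CD4 cells it was at 10.22, 10.22 and 10.16 in Foxp3-positive cells, against 10.55, 10.51 and 10.53 in controls (-0.33 ± 0.09, adjusted p = 0.017), lower without overlap in both lineages. The CD8 call was lost without CD8 control A or B or Foxp3-positive C (adjusted p from 0.0821 to 0.0985) and the CD4 call without CD4 control A or Foxp3-positive C (adjusted p from 0.0501 to 0.0529), and its other cluster passed in neither (adjusted p = 0.0965 and 0.146). Ssr2 was at 11.16, 11.22 and 11.16 in Foxp3-positive CD8 cells, against 11.33, 11.43 and 11.03 in control CD8 cells (-0.08 ± 0.10, adjusted p = 0.663), with overlap. Its CD4 levels were 10.97, 10.95 and 11.00 in Foxp3-positive cells, against 11.47, 11.40 and 11.53 in controls (-0.49 ± 0.10, adjusted p = 0.00284), without. The channel genes Sec61a1 (-0.08 ± 0.11, adjusted p = 0.726 in CD8 and -0.27 ± 0.11, adjusted p = 0.102 in CD4 cells) and Sec61b (0.05 ± 0.18, adjusted p = 0.897 and -0.46 ± 0.18, adjusted p = 0.0933) did not pass. Sec61a1 averaged 11.00 ± 0.08 in CD8 Foxp3-positive cells and 11.08 ± 0.22 in CD8 controls, and 11.01 ± 0.07 in CD4 Foxp3-positive cells and 11.28 ± 0.06 in CD4 controls. Sec61b averaged 5.35 ± 0.36 in CD8 Foxp3-positive cells and 5.30 ± 0.14 in CD8 controls, and 5.01 ± 0.28 in CD4 Foxp3-positive cells and 5.48 ± 0.20 in CD4 controls, all under 5.60.

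All 5 genes of export and retrieval fell in CD4 cells, and 3 of them in CD8 cells (4 without CD8 control C). Sec24d, a COPII coat subunit that selects cargo, had the largest change of the 36 genes in CD4 cells. It was at 6.29, 6.24 and 6.45 in Foxp3-positive CD4 cells, against 8.40, 8.10 and 8.22 in control CD4 cells, a 3.77-fold fall (-1.91 ± 0.12, adjusted p = 1.39e-07). Every CD4 Foxp3-positive array lay below every CD4 control array. In CD8 cells Sec24d was at 6.95, 7.08 and 6.95 in Foxp3-positive cells, against 7.84, 7.70 and 7.40 in controls, a 1.58-fold fall (-0.66 ± 0.12, adjusted p = 0.0016), also without overlap, and no setting ended either call. Its partner Sec23b was at 8.29, 8.36 and 8.28 in Foxp3-positive CD4 cells, against 8.88, 8.62 and 8.80 in control CD4 cells (-0.46 ± 0.12, adjusted p = 0.0167), apart, and at 8.46, 8.66 and 8.45 in Foxp3-positive CD8 cells, against 8.75, 8.74 and 8.31 in control CD8 cells (-0.07 ± 0.12, adjusted p = 0.771), overlapping. The CD4 call of Sec23b was lost without CD4 control A or C (adjusted p from 0.0524 to 0.0661).

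Lman1 encodes ERGIC-53, a cargo receptor for glycoproteins that runs between the ER and the Golgi. It was at 8.75, 8.88 and 8.65 in Foxp3-positive CD8 cells, against 9.39, 9.41 and 9.10 in control CD8 cells (-0.54 ± 0.11, adjusted p = 0.00264). On the CD4 arrays it read 8.65, 8.76 and 8.61 in Foxp3-positive cells, against 9.24, 9.06 and 9.23 in controls (-0.50 ± 0.11, adjusted p = 0.00406), apart in both lineages. KDEL receptors return luminal chaperones from the Golgi. Kdelr3 was at 5.43, 5.40 and 4.97 in Foxp3-positive CD8 cells, against 5.84, 5.85 and 5.82 in control CD8 cells (-0.57 ± 0.12, adjusted p = 0.00477). CD4 arrays gave 5.45, 5.20 and 5.37 in Foxp3-positive cells, against 6.25, 6.05 and 6.23 in controls (-0.84 ± 0.12, adjusted p = 0.000239), with no overlap; its Foxp3-positive means lay under 5.60. Kdelr2 was at 10.29, 10.31 and 10.20 in Foxp3-positive CD8 cells, against 10.70, 10.63 and 10.40 in control CD8 cells (-0.31 ± 0.11, adjusted p = 0.0733). In CD4 cells it was at 10.18, 9.93 and 10.18 in Foxp3-positive cells, against 10.75, 10.47 and 10.70 in controls (-0.54 ± 0.11, adjusted p = 0.00314), again apart. Without CD8 control C the CD8 change of Kdelr2 was -0.40 ± 0.11 and passed (adjusted p = 0.0268).

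The change of 12 of the 36 genes differed between the lineages, all 12 in the direction of a higher value for CD8 than for CD4 cells. Of all genes 6.01% differed in this direction and 7.48% in the other, and the median of the CD8 change minus the CD4 change was 0.44 for the ER genes and -0.01 for all genes. Ern1 (1.36 ± 0.14, adjusted p = 4.92e-05), Sec24d (1.26 ± 0.17, adjusted p = 0.000397), Syvn1 (0.97 ± 0.16, adjusted p = 0.00137), Atf6 (0.90 ± 0.13, adjusted p = 0.000572), Edem1 (0.80 ± 0.13, adjusted p = 0.00114) and Xbp1 (0.60 ± 0.15, adjusted p = 0.0187) kept this call with any 1 array left out and under the other settings. The other cluster of Edem1, however, did not pass for this difference (0.46, adjusted p = 0.0971). Without CD8 control C 11 of the 12 kept it, all but Pdia6 (adjusted p = 0.0514), while 5.97% of all genes differed in this direction and 8.26% in the other.

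The luminal chaperones Hyou1 (0.89 ± 0.23), Dnajb11 (0.62 ± 0.18), Sdf2l1 (0.77 ± 0.23) and Creld2 (0.69 ± 0.21), and Calr (0.56 ± 0.16) and Pdia6 (0.57 ± 0.17), were nearer the threshold, with adjusted p from 0.023 to 0.0453. That of Hyou1 was lost without CD8 Foxp3-positive A or B or CD4 Foxp3-positive B (adjusted p from 0.0502 to 0.0535). The calls of Sdf2l1 and Creld2 were lost without any 1 of the 9 arrays other than the CD8 controls, that of Dnajb11 without any of these but CD8 Foxp3-positive C, and that of Calr without any of these but CD4 Foxp3-positive C (adjusted p from 0.0523 to 0.097). For Pdia6 the call was lost without CD8 control C, CD8 Foxp3-positive A or B, CD4 control A or C, or CD4 Foxp3-positive A or B (adjusted p from 0.0514 to 0.0908). With each array set to its own median the calls of these genes other than Hyou1 were lost, as were the CD4 calls of Hspa5 and Derl2. The calls of Creld2 and Pdia6 were also lost with the replicate letter as a block. The other 24 genes had differences from -0.05 to 0.72 that did not pass, with 95% bounds from -0.40 to 1.30.

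**Figure D3:**
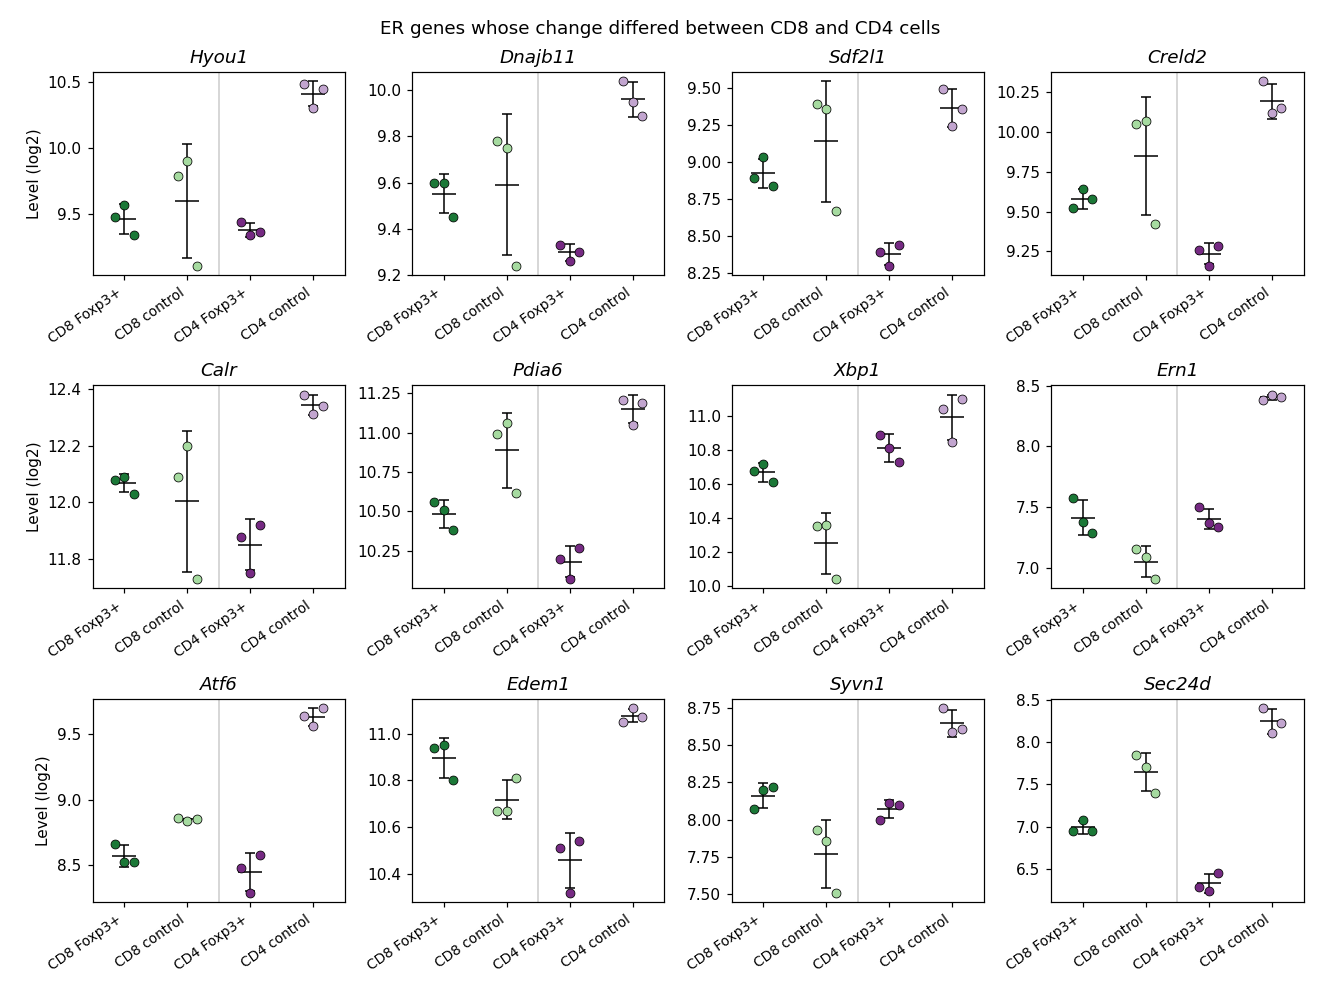
Log2 level on each array (points) with mean and SD (bars, n = 3) for the 12 ER genes whose Foxp3-positive against control change differed between CD8 and CD4 cells; each panel has its own axis, which does not start at 0. The CD4 controls are the highest group in all 12 panels, and array C is the lowest CD8 control in 10 of them.

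Comparing the lineages directly, 2 ER genes were called between Foxp3-positive cells and 12 between controls. Between CD8 and CD4 Foxp3-positive cells 2 of the 36 genes were called, both higher in CD8 cells (2.41% of all genes), and none was lower (2.3% of all genes). The arrays stood apart for 13 genes higher (11.3% of all genes) and 2 lower (11.4%) in CD8 cells. Sec24d averaged 6.99 ± 0.07 in CD8 and 6.33 ± 0.11 in CD4 Foxp3-positive cells (0.66 ± 0.12, adjusted p = 0.00624). Edem1 averaged 10.90 ± 0.09 in CD8 and 10.46 ± 0.12 in CD4 Foxp3-positive cells (0.44 ± 0.09, adjusted p = 0.0118), and its call was lost with only the Foxp3-positive arrays in the fit and without CD8 Foxp3-positive A or B or CD4 Foxp3-positive B (adjusted p from 0.0527 to 0.0578). The other cluster of Edem1 did not pass here (0.35, adjusted p = 0.147). The other 34 genes, none of them called, differed by -0.27 to 0.55. The lowest and highest 95% bounds of any of them were -0.48 and 0.89. Of the 36 estimates 32 were above 0 and 4 below.

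Between the controls 12 of the 36 genes were called, all lower in CD8 than in CD4 controls (8.76% of all genes), and none was higher (12.1% of all genes). The arrays stood apart for 16 genes lower (15.4% of all genes) and none higher (18.3%). The largest were Ern1 (-1.35 ± 0.10, adjusted p = 9.8e-07), Syvn1 (-0.88 ± 0.11, adjusted p = 9.54e-05), Hyou1 (-0.81 ± 0.16, adjusted p = 0.00322), Atf6 (-0.78 ± 0.09, adjusted p = 5.15e-05) and Xbp1 (-0.74 ± 0.11, adjusted p = 0.000259). The others were Sec24d (-0.60 ± 0.12), P4hb (-0.49 ± 0.12), Edem1 (-0.36 ± 0.09), Dnajb9 (-0.65 ± 0.19), Manf (-0.40 ± 0.11), Calr (-0.34 ± 0.11) and Spcs3 (-0.31 ± 0.10), with adjusted p from 0.00314 to 0.0487. On its other cluster Edem1 did not pass between controls (-0.11, adjusted p = 0.604). Without CD8 control C 8 of the 12 passed (8.44% of all genes lower and 12.2% higher), and Dnajb9, Manf, Calr and Spcs3 did not (adjusted p from 0.061 to 0.151). The calls of these 4 were also lost without CD4 control A (Dnajb9, Manf, Calr), B (Dnajb9, Calr) or C (Calr, Spcs3) or CD8 control A (Calr, Spcs3) or B (Spcs3). Those of Calr, Manf and Spcs3 were lost with only the control arrays in the fit, those of Calr and Spcs3 also with each array set to its own median or with the replicate letter as a block, and that of Calr also with all clusters of 1 symbol. Over the 4 groups the CD4 controls had the highest mean for 28 of the 36 genes and the CD4 Foxp3-positive cells the lowest for 27. This comparison, the CD4 comparison and the difference between lineages share the CD4 control arrays.

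Other genes of the pathway, 93 measured of 6 lists, more often fell than rose in CD4 cells, where 43 fell and 4 rose. In CD8 cells 17 fell and 10 rose (27 and 7 without CD8 control C). For the difference between lineages 15 were higher (16.1%) and 2 lower (2.15%), against 6.01% and 7.48% of all genes. Of genes at or above the median level 9.84% were higher and 13.4% lower for this difference. As shares, 46.2% fell and 4.3% rose in CD4 cells, and 18.3% fell and 10.8% rose in CD8 cells. Of all genes 10.4% fell and 12.1% rose in CD4 cells, and 10.6% fell and 9.39% rose in CD8 cells. Of genes at or above the median level 15.9% fell and 20.6% rose in CD4 cells, and 18.8% fell and 16.4% rose in CD8 cells. A list below whose share lies near these does not stand out from other genes. The plot of calls by list sets each list beside all genes.

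Of the third stress arm, PERK and ATF4, 9 of 12 genes fell and none rose in CD4 cells, and 6 fell and 1, Sesn2, rose in CD8 cells (8 and none without CD8 control C). Eif2ak3, which encodes PERK, fell in both lineages (-1.41 ± 0.10, adjusted p = 3.49e-07 in CD8 and -1.12 ± 0.10, adjusted p = 2e-06 in CD4 cells). Asns, which makes asparagine, fell most in CD8 cells (-2.57 ± 0.11, against -1.66 ± 0.11 in CD4 cells), and Atf3, a stress-induced transcription factor, most in CD4 cells (-0.94 ± 0.12 in CD8 and -1.92 ± 0.12 in CD4 cells). Trib3, an inhibitor of ATF4 signalling, passed in neither (-0.42 ± 0.19 and -0.46 ± 0.19), but fell in CD8 cells without CD8 control C.

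Among 15 other genes of folding and oxidation 10 fell and none rose in CD4 cells, and 3 fell and 2 rose in CD8 cells (4 and 1 without CD8 control C). Dnajc1, a BiP cochaperone of the ER membrane, fell in CD4 cells (-1.32 ± 0.08, adjusted p = 1.3e-07) and not in CD8 cells (-0.03 ± 0.08, adjusted p = 0.882), a difference that passed (1.30 ± 0.12, adjusted p = 1.84e-05). Ero1a, the oxidase that recharges disulfide isomerases, changed by -0.63 ± 0.20 in CD8 and -1.24 ± 0.20 in CD4 cells, and Pdia5 by -1.14 ± 0.21 and -1.19 ± 0.21, all calls, of which the CD8 call of Ero1a was lost without CD8 control C. The Foxp3-positive means of Pdia5, 4.81 in CD8 and 4.88 in CD4 cells, lay under 5.60. Cnpy2 passed in neither (0.18 ± 0.08 and 0.20 ± 0.08).

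Of 16 other translocation genes 8 fell and 1, Sec62, rose in CD4 cells, while 4 fell and none rose in CD8 cells, with or without CD8 control C. The channel subunit Sec61g fell in CD4 cells (-0.93 ± 0.10, adjusted p = 1.88e-05; -0.14 ± 0.10 in CD8 cells, not called), Ssr3 fell in both (-0.47 ± 0.09 and -0.60 ± 0.09), and Srprb, a subunit of the receptor for the signal recognition particle, fell in CD8 cells (-0.60 ± 0.11, adjusted p = 0.0019; -0.23 ± 0.11 in CD4 cells, not called). Srpr, its other subunit, passed in neither (0.04 ± 0.11 and -0.02 ± 0.11). Of 16 N-glycosylation genes 7 fell and none rose in CD4 cells, and 4 fell and 1, Gmppb, rose in CD8 cells (0.46 ± 0.15; -0.25 ± 0.15 in CD4 cells, not called). In CD8 cells 7, Rpn2 among them, fell and none rose without CD8 control C. The oligosaccharyltransferase subunits Rpn2 (-0.31 ± 0.11, not called, in CD8 and -0.65 ± 0.11, called, in CD4 cells) and Ostc (-0.40 ± 0.11 and -0.58 ± 0.11, both called) were among them, and Ost4 passed in neither (0.15 ± 0.08 and 0.08 ± 0.08).

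Of 13 other degradation genes 4 fell (30.8%) and 2 rose (15.4%) in CD4 cells, while 3 rose (23.1%) and none fell in CD8 cells. Those that rose in CD4 cells were Edem3 (0.55 ± 0.12, against 0.04 ± 0.12 in CD8 cells, not called) and Ufd1. In CD8 cells 3 rose and 2, Selenos and Vcp, fell without CD8 control C. Os9, a lectin that brings glycoproteins to HRD1, fell in CD4 cells (-0.79 ± 0.09, adjusted p = 3.87e-05; -0.06 ± 0.09 in CD8 cells, not called), and so did Selenos (-0.66 ± 0.20; -0.09 ± 0.20 in CD8 cells, not called). Vcp, the ATPase that pulls clients out, passed in neither with all arrays (-0.27 ± 0.10 and -0.14 ± 0.10). Of 21 other vesicle traffic genes 5 fell (23.8%) and 1 rose (4.76%) in CD4 cells, and 3 rose (14.3%) and none fell in CD8 cells (3 and 2 without CD8 control C). Sec24a, another cargo-selecting subunit of the same coat, rose in both lineages, by 0.88 ± 0.09, adjusted p = 1.16e-05 in CD8 and 0.93 ± 0.09, adjusted p = 4.77e-06 in CD4 cells, where Sec24d fell. Tmed3 and Tmed9, p24 cargo receptors, fell in CD4 cells (-0.63 ± 0.09 and -0.61 ± 0.16), and Tmed10 passed in neither (0.20 ± 0.10 and 0.00 ± 0.10).

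**Figure D4:**
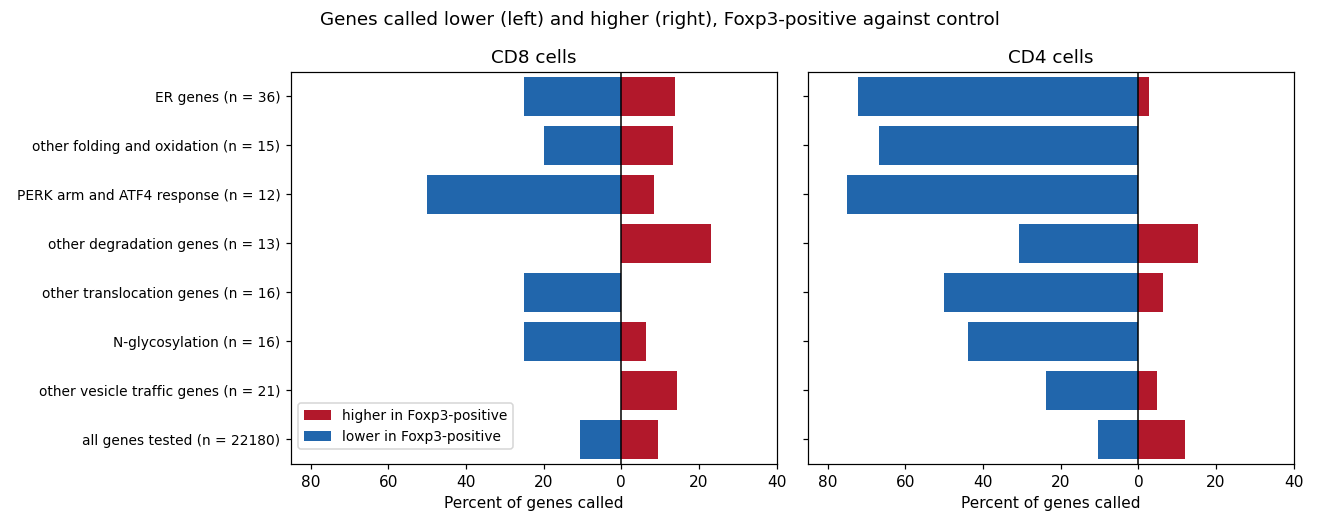
Percent of genes called lower (blue, to the left) and higher (red, to the right) in Foxp3-positive than in control cells (adjusted p under 0.05), for the 36 ER genes, 6 lists of other pathway genes and all 22180 genes tested, in CD8 (left panel) and CD4 cells (right panel). In CD4 cells 72.2% of the ER genes are called lower against 10.4% of all genes, and in CD8 cells 25% against 10.6%.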

How the data were processed

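RNA (250 ng per sample) of 12 sorted T cell samples in 4 groups of 3 was hybridised to 1-colour Affymetrix arrays. The authors deposited log2 values for 34365 transcript clusters. Per the submitters' processing notes these come from RMA in Affymetrix Expression Console, for which no version is stated. RMA corrects background, normalizes probe signals between arrays and summarises them, so much of a shift shared by most genes would be removed. The platform annotation gave 23521 clusters exactly 1 symbol, 1814 several (not used) and 9030 none. The brightest cluster stood for each of 22180 genes.

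limma 3.58.1 in R 4.3.3 fitted 4 group means to all 12 arrays, with 8 residual degrees of freedom, and tested 5 contrasts, adjusted by Benjamini-Hochberg over all genes at 0.05. The number of arrays limits the precision: standard errors of the ER genes' changes were 0.09 to 0.19. The ER genes and lists were chosen with earlier results of these data known. Values are printed for every array for genes passing in CD8 cells, CD4 cells or the difference between them, and for Xbp1, Ern1, Atf6, Hspa5 and Hsp90b1. From each list of other pathway genes the text names, by rule, the 3 called genes with the largest change and the brightest gene called in neither lineage. Genes named only to complete a count were chosen after their values were seen. Fits were tested on simulated data. Alternatives changed the clusters, genes, prior, scaling, arrays or replicate block. Arrays correlated at 0.992 to 0.994 within groups and none duplicated another.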

Additional observations from a re-analysis of the deposited data

Results flagged for a closer look

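For 12 ER genes the change from control to Foxp3-positive cells differed between CD8 and CD4 cells by limma's test of the difference itself. The CD8 change minus the CD4 change, on the log2 scale, was 1.36 for Ern1, 0.60 for Xbp1 and 0.90 for Atf6 among the stress sensors, and 0.97 for Syvn1 and 0.80 for Edem1 in degradation. It was 0.89 for Hyou1, 0.77 for Sdf2l1, 0.69 for Creld2 and 0.62 for Dnajb11 among luminal chaperones, 0.57 for Pdia6 and 0.56 for Calr among lectin chaperones and disulfide isomerases, and 1.26 for Sec24d in the vesicle coat. With all arrays, Ern1 and Syvn1 rose in CD8 cells and fell in CD4 cells, Xbp1 rose in CD8 cells with no call in CD4 cells, and Atf6, Pdia6 and Sec24d fell in both, more in CD4 cells. The CD8 calls of Ern1, Syvn1 and Atf6 were lost without CD8 control C (limma adjusted p = 0.0659, 0.0704 and 0.0803). With only the CD8 arrays in the fit these and that of Pdia6 were lost. The differences of Hyou1, Sdf2l1, Creld2, Dnajb11, Pdia6 and Calr were each lost with some single arrays left out. That of Edem1 did not pass on its other cluster. Days of culture differed with lineage, and their part was not tested.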

How the results depend on the processing

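Of the calls made with all arrays, 23 of 27 in CD4 cells, 7 of 14 in CD8 cells, 6 of 12 for the difference between lineages, 8 of 12 between controls and 1 of 2 between Foxp3-positive cells held under every alternative, each left-out array included. With only the compared groups in the fit, 5 ER genes fell in CD8 cells; with each array set to its own median, 7 had a higher change in CD8 than in CD4 cells, and with quantile normalization repeated, 2 rose in CD4 cells. These scalings moved the median gene by at most 0.046 and 0.0148. Leaving out 1 array at a time gave 3 to 5 ER genes higher and 5 to 14 lower in CD8 cells, 1 higher and 22 to 25 lower in CD4 cells, 6 to 15 higher for the difference between lineages, 8 to 12 lower in CD8 than in CD4 controls, and 1 to 2 higher in CD8 than in CD4 Foxp3-positive cells, where 674 to 969 of all genes were called (1044 with all arrays). Of all 22180 genes, 3472 to 4547 were then called in CD8 cells (4430 with all arrays) and 3834 to 4606 in CD4 cells (4985). For the difference between lineages 2253 to 3158 of all genes were called (2993 with all arrays), and between controls 3588 to 4573 (4636). The causes were not tested. No label says what the letters A to C mark, and the main fit does not use them. With group means removed, 10 of 12 arrays correlated best with an array of their own letter. Same-letter pairs correlated weakly, at -0.102 to 0.137 (2 of 18 above 0.1), and other-letter pairs at -0.14 to 0.088. What the letters share was not tested. With the replicate block, 6 ER genes rose and 9 fell in CD8 cells, 1 rose and 27 fell in CD4 cells, 11 were higher for the difference, 11 were lower between controls and 2 were higher between Foxp3-positive cells. The calls that the block ended were those of P4hb in CD8 cells, Creld2 and Pdia6 for the difference, and Calr and Spcs3 between controls. No share of all genes is given for the block, the scalings or the compared groups alone. Those counts therefore show only how the calls of the ER genes moved. Of the changes of single genes counted under alternatives, 1406 kept direction and call, 53 gained a call, 123 lost one and 15 changed sign, none of them a called change. This count leaves out some uncalled changes between lineages. Without CD8 control C the change between controls turned from -0.23 to 0.01 for Sdf2l1 and from -0.06 to 0.02 for Kdelr2. The difference between lineages then fell below 0 for Herpud1 (-0.15) and Ssr1 (-0.05). In CD4 cells the change of Sel1l was 0.0178 with each array set to its median, and ran from -0.0641 (without Foxp3-positive A) to 0.0381 (without Foxp3-positive B) with 1 array left out. The CD8 changes that turned sign ran from -0.3704 to 0.05 for Hspa5, from -0.3817 to 0.0159 for Hyou1, from -0.2171 to 0.0570 for Dnajb11, from -0.2295 to 0.0208 for Derl2, from -0.1993 to 0.0171 for Sec61a1 and from -0.2191 to 0.0028 for Sec23b. The lowest of each was without control C and the highest without control A or B. Calr ran from -0.0751 (without control C) to 0.163 (without control B), and Sec61b from -0.0918 (without Foxp3-positive B) to 0.257 (without Foxp3-positive A). With 3 arrays a group small changes are bounded only loosely, and Sec61b, Derl3 and Kdelr3 lay near or under the median level of all genes.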
